A study of Mus musculus with 8 samples.

Results

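Adipogenic transcription factors around Pparg were compared between BMPR2 DELX and ROSA cells in 8 mouse RNA sequencing libraries, 4 for each label. The 10 genes were taken by name: Pparg, Ppara, Ppard, Cebpa, Cebpb, Cebpd, Ebf1, Ebf2, Zfp423 and Ppargc1a, out of 49671 genes with a row in the deposited count files. The series describes BMPR2 DELX as a mutant of mice and ROSA as its control, and both groups carry the tissue label adipocytes. Age, sex, strain background, fat depot, time in culture and the promoter or Cre behind either label are not given in the labels, nor is it stated whether the samples of a group came from separate animals.

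PPARγ, encoded by Pparg, is the nuclear receptor that fat cell differentiation depends on, and it binds DNA as a dimer with a retinoid X receptor. In cultured preadipocytes C/EBPβ and C/EBPδ are induced early and raise Pparg and Cebpa, whose products then maintain each other and switch on the genes of lipid storage. EBF1, EBF2 and ZFP423 act at the commitment of mesenchymal cells to the fat lineage, and PGC-1α, encoded by Ppargc1a, is a coactivator known for mitochondrial and thermogenic genes.

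Promoter windows of 250 bases upstream of an annotated start were taken from RefSeq (GRCm38.p6) and matched 8 of the 10 genes in 12 windows, leaving out Cebpd and Ebf2. Each window was searched on both strands for 5 motifs. TTGCNNAA, a C/EBP core, was in 2 of the 12 windows, against 9.56% of 32851 RefSeq windows of the same length. TGACG, the core of the cAMP response element, was in 3 of the 12, against 17.8% of all windows. GGCGCC, a GC-rich element that BMP-activated SMADs can bind, was in 4 of the 12, against 9.59% of all windows. Those 4 windows were 66.4% to 82.4% G or C, against a median of 52.4% over all windows. Windows alike in G and C content were not compared, so these counts do not show an excess of the element. The direct repeat bound by PPAR and RXR dimers (AGGNCA, any base, AGGNCA) and an EBF palindrome (TCCC, any 2 bases, GGGA) were in 0 of the 12, against 0.338% and 0.779% of all windows. A match describes the letters of a window and does not show that a factor was bound there.

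The 4 windows below, each with a match and outside the annotated exons of its own gene, are shown for Pparg, for the C/EBP genes with a window and for Zfp423. The Pparg window lies before the downstream start, that of the adipocyte-enriched PPARγ2 isoform, and its capitals mark matches to TTGCNNAA at bases -215 to -208 and -16 to -9 from the start. In the Cebpa window they mark GGCGCC at -83 to -78. In the Cebpb window, 81.6% G or C against a median of 52.4% over all windows, they mark TGACG or its complement at -180 to -176, -53 to -49 and -7 to -3. In the Zfp423 window they mark TTGCNNAA at -131 to -124.
Pparg, chr6:115421816-115422065, plus strand: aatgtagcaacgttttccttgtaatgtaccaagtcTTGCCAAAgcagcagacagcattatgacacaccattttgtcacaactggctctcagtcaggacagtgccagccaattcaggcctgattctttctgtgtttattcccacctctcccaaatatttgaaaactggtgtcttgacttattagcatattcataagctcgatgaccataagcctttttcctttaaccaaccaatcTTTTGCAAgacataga
Cebpa, chr7:35119043-35119292, plus strand: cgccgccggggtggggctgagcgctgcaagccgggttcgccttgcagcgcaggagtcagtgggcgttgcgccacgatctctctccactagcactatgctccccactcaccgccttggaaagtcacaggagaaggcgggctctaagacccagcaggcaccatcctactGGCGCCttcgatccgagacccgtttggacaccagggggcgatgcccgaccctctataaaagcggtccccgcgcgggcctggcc
Cebpb, chr2:167688665-167688914, plus strand: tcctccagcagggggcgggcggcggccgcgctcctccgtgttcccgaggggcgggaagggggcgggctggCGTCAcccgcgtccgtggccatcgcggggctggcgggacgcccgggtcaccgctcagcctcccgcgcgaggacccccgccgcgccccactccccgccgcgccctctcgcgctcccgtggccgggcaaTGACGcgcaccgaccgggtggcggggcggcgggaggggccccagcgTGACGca
Zfp423, chr8:87959596-87959845, minus strand: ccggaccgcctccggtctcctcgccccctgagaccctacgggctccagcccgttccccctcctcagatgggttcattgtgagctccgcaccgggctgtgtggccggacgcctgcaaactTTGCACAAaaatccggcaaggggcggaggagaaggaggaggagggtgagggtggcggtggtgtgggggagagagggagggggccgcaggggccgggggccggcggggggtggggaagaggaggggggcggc

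The libraries held 28799445 to 43684785 counts assigned to genes. Bmpr2, the BMP receptor gene named in the mutant label, had 237, 208, 201 and 199 TMM-scaled counts per 1e6 counts (CPM) in BMPR2 DELX libraries 1 to 4, against 216, 207, 183 and 183 CPM in ROSA libraries 1 to 4, where TMM is edgeR's scaling of library totals. Its log2 fold change of BMPR2 DELX over ROSA was 0.10 ± 0.08 (SE; edgeR adjusted p = 0.471), and gene-level counts say nothing of which exons were transcribed. The adipocyte label was not borne out by the defining markers of a mature fat cell. Of 24 adipocyte markers, 13 were under 1 CPM in all 8 libraries; Adipoq (adiponectin) had at most 6 counts in a library, Plin1 at most 2, and Lep, Cfd and Cidec at most 1 each. Some genes of lipid synthesis and uptake in the same list were well expressed. Fasn averaged 360 CPM in BMPR2 DELX against 451 CPM in ROSA. Scd1 averaged 170 CPM in BMPR2 DELX against 162 CPM in ROSA, and Lpl and Fabp4 are given with the PPAR targets. Others were low, with Dgat2 at 6.32 CPM in BMPR2 DELX against 6.61 CPM in ROSA. Cd36 averaged 0.526 CPM in BMPR2 DELX against 0.362 CPM in ROSA. The summed level of the list was 870 to 1019 CPM in BMPR2 DELX and 877 to 985 CPM in ROSA. Summed fibroblast and preadipocyte markers ran from 23237 to 25917 CPM in BMPR2 DELX and from 20705 to 24346 CPM in ROSA, with totals not scaled by TMM. In BMPR2 DELX its largest members were Fn1, Col1a1, Col1a2 and Vim, averaging 6631, 6106, 4590 and 4052 CPM, and Dlk1 and Dpp4 averaged 0.281 and 0.439 CPM. Summed smooth muscle and pericyte markers were also high, at 10256 to 13134 CPM in BMPR2 DELX and 11184 to 15031 CPM in ROSA. Over all 14887 genes tested, 1355 were called at an edgeR adjusted p below 0.05, 589 higher and 766 lower in BMPR2 DELX. The higher genes made up 43.5% of the calls with TMM scaling and 54.8% with upper-quartile scaling.

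Of the 10 regulators, 9 passed the filter on low counts and were tested, and Cebpd was the 1 called, higher in BMPR2 DELX. The background for that count was 3.96% of all tested genes called higher, 5.15% called lower and 9.1% called in either direction. Ppara was tested because of its level in BMPR2 DELX, which favours a positive sign, and is left out of the next count. The other 8 log2 fold changes were all above 0, against 50.7% of all tested genes, and their median was 0.34 against 0.0045 over all tested genes. An unadjusted p below 0.05 was reached by 4 of the 9 (Pparg, Cebpa, Cebpd and Zfp423), all of them higher in BMPR2 DELX, against 12.9% of all tested genes higher and 26.3% in either direction. In 1 of the 9, Cebpd, the libraries of the groups did not overlap and BMPR2 DELX was higher, and 8.32% of all tested genes showed that, against 9.65% with BMPR2 DELX lower and 18% in either direction. These are bulk samples, in which a change in the share of a cell type and a change of RNA per cell cannot be told apart.

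**Figure D1:**
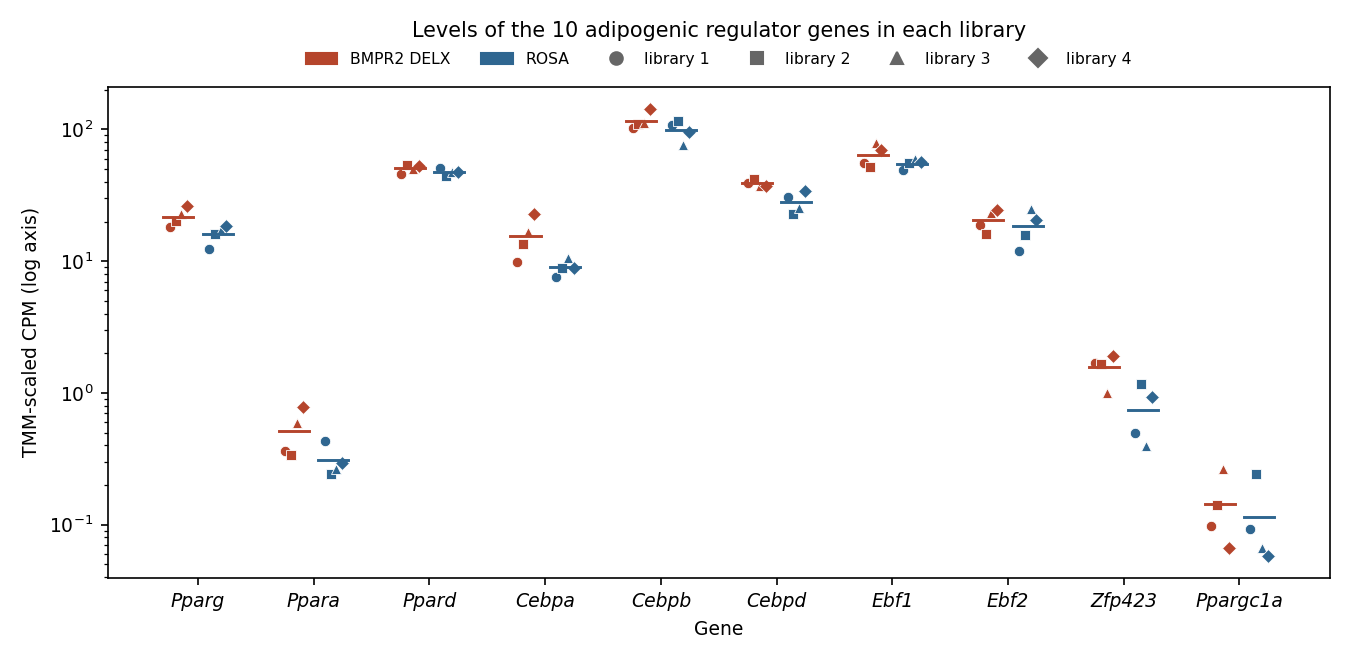
Level of each regulator gene in TMM-scaled CPM (log axis) in every library, BMPR2 DELX in red left of ROSA in blue; marker shapes give the library number and bars the group mean. The groups of Cebpd do not overlap, and Ppara and Ppargc1a lie under 1 CPM in every library.

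Per length of transcript, Cebpb stood highest in both groups. In counts per kb of exon per 1e6 counts (RPKM, from TMM-scaled totals), Cebpb averaged 77.6 ± 11.8 in BMPR2 DELX and 65.5 ± 11.2 in ROSA (SD, n = 4 each). Cebpd came next, at 10.4 ± 0.629 RPKM in BMPR2 DELX and 7.53 ± 1.33 RPKM in ROSA. In BMPR2 DELX, the order of mean RPKM went on with Pparg at 7.39, Ppard at 6.73, Ebf1 at 6.57, Cebpa at 5.92 and Ebf2 at 2.98. From Pparg to Cebpa each gene's range over libraries overlapped that of the gene above it, so those 4 were not ordered beyond their spread. In ROSA, Ppard at 6.32, Ebf1 at 5.64 and Pparg at 5.45 RPKM stood before Cebpa at 3.40 and Ebf2 at 2.65. There the ranges from Cebpd down to Pparg overlapped step by step, as did those of Cebpa and Ebf2. Zfp423, Ppara and Ppargc1a closed the order in both groups, at 0.280, 0.135 and 0.0216 RPKM in BMPR2 DELX and at 0.134, 0.0805 and 0.0175 RPKM in ROSA.

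Pparg (ENSMUSG00000000440, GRCm38 chromosome 6, 115360951 to 115490399, plus strand), whose downstream promoter is printed above, was moderately expressed in every library. It had 18.3, 20.0, 22.8 and 26.3 CPM in BMPR2 DELX libraries 1 to 4, against 12.4, 16.02, 17.4 and 18.6 CPM in ROSA libraries 1 to 4. Of the ROSA libraries only ROSA 4, at 18.6 CPM, lay within the BMPR2 DELX range, and ROSA 1 was the lowest of all 8. The means were 21.8 ± 3.49 CPM in BMPR2 DELX against 16.1 ± 2.67 CPM in ROSA, a log2 fold change of 0.44 ± 0.14 (SE) or 1.36-fold. The edgeR adjusted p was 0.0856, so Pparg was not called. Counts are summed over the gene, and the starts and isoforms of Pparg were not told apart.

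The other PPAR genes differed less in CPM or were near the limit of detection. Ppard (ENSMUSG00000002250, chromosome 17, 28232700 to 28301474, plus strand), a widely expressed activator of fatty acid oxidation genes, had 46.2, 53.5, 50.1 and 52.7 CPM in BMPR2 DELX libraries 1 to 4, against 50.8, 44.1, 47.4 and 47.5 CPM in ROSA libraries 1 to 4. Of the ROSA libraries 3 lay within the BMPR2 DELX range, and the log2 fold change was 0.09 ± 0.07 (SE; edgeR adjusted p = 0.421). Ppara (ENSMUSG00000022383, chromosome 15, 85734983 to 85802819, plus strand), the PPAR of fasting liver and of brown fat, had 11, 12, 20 and 35 raw counts in BMPR2 DELX libraries 1 to 4, against 14, 10, 8 and 10 in ROSA libraries 1 to 4. Libraries 3 and 4 of BMPR2 DELX were above all others and the rest of the groups overlapped. The fitted log2 fold change of Ppara was 0.77 ± 0.36 (SE; edgeR adjusted p = 0.207). Ppara was over the filter's CPM minimum of 0.2915 in 4 BMPR2 DELX libraries and 1 ROSA library, the reason for which its sign is not counted with the others.

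Among the C/EBP genes, Cebpd (ENSMUSG00000071637, chromosome 16, 15887286 to 15891031, plus strand), an early factor of adipogenesis that also responds to glucocorticoid and cytokines, rose in BMPR2 DELX. It had 39.4, 42.3, 37.2 and 37.4 CPM in BMPR2 DELX libraries 1 to 4, against 30.5, 22.9, 25.5 and 34.0 CPM in ROSA libraries 1 to 4. The lowest BMPR2 DELX library was above the highest ROSA library, and the coefficient of variation was 6.03% in BMPR2 DELX and 17.7% in ROSA. The means were 39.1 ± 2.35 CPM in BMPR2 DELX against 28.2 ± 4.99 CPM in ROSA, a log2 fold change of 0.47 ± 0.12 (SE) or 1.38-fold, with an edgeR adjusted p of 0.0364. By p it was rank 1007 of the 14887 tested genes. The call was lost when any library other than ROSA 4 was left out, with edgeR adjusted p from 0.0567 to 0.0917, and the log2 fold change stayed between 0.39 and 0.57 over all 8 such fits.

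Cebpa (ENSMUSG00000034957, chromosome 7, 35119293 to 35121928, plus strand), the partner that maintains Pparg in differentiated fat cells, was the most variable of the better expressed regulators within BMPR2 DELX. It had 9.82, 13.4, 16.6 and 22.7 CPM in BMPR2 DELX libraries 1 to 4, against 7.58, 8.81, 10.6 and 8.90 CPM in ROSA libraries 1 to 4. BMPR2 DELX 4 was the highest library and only ROSA 3 lay within the BMPR2 DELX range. The coefficient of variation was 34.9% in BMPR2 DELX and 13.7% in ROSA. The means were 15.6 ± 5.44 CPM in BMPR2 DELX against 8.97 ± 1.23 CPM in ROSA, a log2 fold change of 0.80 ± 0.23 (SE) or 1.75-fold, with an edgeR adjusted p of 0.0587. Without BMPR2 DELX 1 the gene was called at 0.98 (edgeR adjusted p = 0.0224), and without BMPR2 DELX 4 the log2 fold change was 0.57.

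Cebpb (ENSMUSG00000056501, chromosome 2, 167688915 to 167690418, plus strand), the other early C/EBP, had 103, 109, 113 and 143 CPM in BMPR2 DELX libraries 1 to 4, against 107, 115, 76.4 and 95.1 CPM in ROSA libraries 1 to 4. BMPR2 DELX 4 was the highest library, ROSA 3 the lowest, and the others overlapped. The log2 fold change was 0.25 ± 0.14 (SE; edgeR adjusted p = 0.295), and it was 0.13 without BMPR2 DELX 4. Cebpb shares 312 exon bases, 20.7% of its exon length, with Tmem189 on the other strand, and its unstranded count was 61.1% of its opposite-strand count. Cebpd shares 562 exon bases, 15.0% of its length, with Spidr on the other strand, and its unstranded count was 107% of its opposite-strand count.

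**Figure D2:**
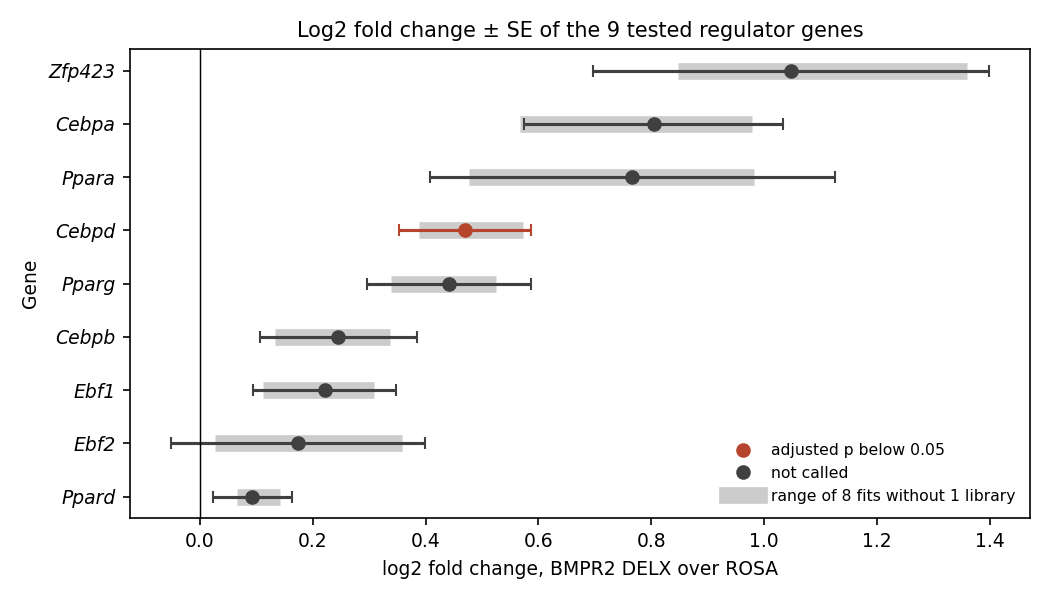
Log2 fold change of BMPR2 DELX over ROSA for the 9 tested regulators (points) with the standard error (bars) and the range over the 8 fits that each leave out 1 library (grey). The 8 points other than Ppara, which was tested through its level in BMPR2 DELX, lie above 0 with their grey ranges, and Cebpd is the 1 gene with an adjusted p below 0.05.

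Of the commitment factors, Zfp423 had the largest fold change and Ebf1 and Ebf2 overlapped between groups. Zfp423 (ENSMUSG00000045333, chromosome 8, 87661810 to 87959595, minus strand), a zinc finger protein of preadipocytes that works with BMP-activated SMADs, had 1.70, 1.66, 0.998 and 1.92 CPM in BMPR2 DELX libraries 1 to 4, against 0.497, 1.16, 0.399 and 0.934 CPM in ROSA libraries 1 to 4. Only ROSA 2 lay within the BMPR2 DELX range, between BMPR2 DELX 3 and the other BMPR2 DELX libraries. The means were 1.57 ± 0.399 CPM in BMPR2 DELX against 0.749 ± 0.362 CPM in ROSA, a log2 fold change of 1.05 ± 0.35 (SE) or 2.07-fold, with an edgeR adjusted p of 0.0906. These levels rest on 34 to 86 raw counts a library in BMPR2 DELX and 12 to 48 in ROSA.

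Ebf1 (ENSMUSG00000057098, chromosome 11, 44617317 to 45008091, plus strand), an early B cell factor that is also active in fat precursors, had 55.6, 52.3, 78.4 and 70.3 CPM in BMPR2 DELX libraries 1 to 4, against 49.1, 55.3, 59.4 and 56.4 CPM in ROSA libraries 1 to 4. BMPR2 DELX 3 and 4 stood above all other libraries and 3 ROSA libraries lay within the BMPR2 DELX range. The log2 fold change of Ebf1 was 0.22 ± 0.13 (SE; edgeR adjusted p = 0.298). Ebf2 (ENSMUSG00000022053, chromosome 14, 67233292 to 67430918, plus strand), a marker of brown and beige fat precursors, had 18.7, 16.1, 23.3 and 24.6 CPM in BMPR2 DELX libraries 1 to 4, against 11.9, 15.9, 25.0 and 20.6 CPM in ROSA libraries 1 to 4. ROSA held both the lowest and the highest library. The log2 fold change was 0.17 ± 0.23 (SE; edgeR adjusted p = 0.666), and it was -0.13 without ROSA 1 and ROSA 2 together.

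Ppargc1a (ENSMUSG00000029167, chromosome 5, 51454250 to 51567726, minus strand) was barely detected and did not pass the filter. It had 3, 5, 9 and 3 raw counts in BMPR2 DELX libraries 1 to 4, against 3, 10, 2 and 2 in ROSA libraries 1 to 4. ROSA 2 and BMPR2 DELX 3 were the highest, and all others held 5 counts or fewer. The mean difference in log2(CPM + 0.5) was 0.08, with an exact two-sided permutation p of 0.486 over 70 assignments of the libraries, where 0.0286 is the smallest p this design allows. A difference in Ppargc1a was not detectable at this depth.

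Within BMPR2 DELX, library 4 was high for several of these genes, as the plot of centred values shows. BMPR2 DELX 4, the deepest library, was the highest of its group for 6 of the 10 genes, and BMPR2 DELX 1, the shallowest, for 0 of 10. ROSA 1 was the lowest of its group for 4 of 10 and the highest for 2 of 10. In ROSA 1, 22.0% of the reads were not assigned to a gene, against 14.7% to 17.3% in the other libraries. With that share as a covariate, a setting chosen after seeing the data, the log2 fold change of Pparg was 0.28, that of Cebpa 0.61, that of Cebpd 0.53 and that of Zfp423 0.75, with edgeR adjusted p of 0.254, 0.21, 0.0671 and 0.267.

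**Figure D3:**
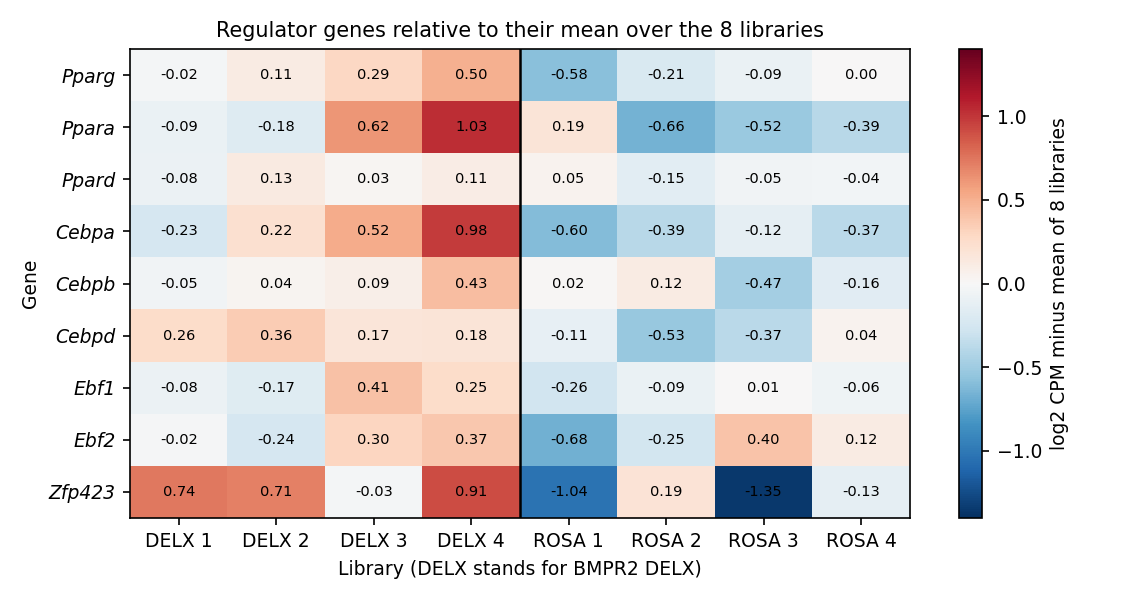
Log2 CPM of the 9 tested regulators minus each gene's mean over the 8 libraries, with BMPR2 DELX libraries left of the line and ROSA libraries right of it. Cebpd is above its mean in all 4 BMPR2 DELX libraries, and Pparg and Cebpa are highest in BMPR2 DELX 4.

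Markers of other cells differed between the groups as well. Macrophages also express Pparg and the C/EBP genes. The summed level of 17 macrophage and leukocyte markers was 42.5 to 75.0 CPM in BMPR2 DELX and 25.7 to 39.0 CPM in ROSA, with no overlap. Most of it was Csf1r, at 22.4 to 38.1 CPM in BMPR2 DELX and 17.9 to 26.4 CPM in ROSA. Of the 17, 12 were under 1 CPM in all libraries. C1qb and C1qc, complement genes of macrophages, were higher in BMPR2 DELX with no overlap, at 0.0916 to 0.347 and 0.178 to 0.660 CPM in BMPR2 DELX against 0 to 0.0467 and 0.0285 to 0.132 CPM in ROSA. Neither passed the filter, and they had at most 10 and 19 counts in a library, so the gap rests on few reads. C1qa, Tyrobp, Fcer1g and Itgam, also low, overlapped between groups. Of all tested genes, 8.32% were higher in BMPR2 DELX with no overlap. Ptprc (CD45, on all leukocytes) had 0.119 to 0.486 CPM in BMPR2 DELX and 0.260 to 0.594 CPM in ROSA. All 6 tested markers were above 0, against 50.7% of all tested genes, with a median log2 fold change of 0.56. Among them, Cd14 at 0.0198 and Mrc1 at 0.0239 hardly differed between groups. Mpeg1 was over the filter minimum in 4 BMPR2 DELX and 3 ROSA libraries, and Mrc1 in 3 BMPR2 DELX and 2 ROSA libraries. Lyz2 averaged 11.5 CPM in BMPR2 DELX against 4.06 CPM in ROSA (edgeR adjusted p = 0.0737). Mpeg1 averaged 2.42 CPM in BMPR2 DELX against 0.653 CPM in ROSA (edgeR adjusted p = 0.0765). Neither was called by edgeR. In this list DESeq2 called 3 higher, edgeR and limma voom 1 each, and 0 were called lower. Cd68 was called higher (0.72 ± 0.16, edgeR adjusted p = 0.0238; the call was lost without BMPR2 DELX 2 or BMPR2 DELX 3, at 0.0652 and 0.0502), a gene chosen after its values were seen. The part of these cells in the differences of Pparg, Cebpa and Cebpd was not tested.

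Summed endothelial markers ran from 858 to 3002 CPM in BMPR2 DELX and from 1416 to 2786 CPM in ROSA, with the lowest values in BMPR2 DELX 3 and ROSA 3. None of the 17 tested endothelial markers was called by edgeR, with 1 at an unadjusted p below 0.05 (Flt1, -1.18 ± 0.32, adjusted p = 0.0606, named after its values were seen), and 1 was called lower by DESeq2 and by limma voom. Without those 2 libraries the log2 fold change of Cebpd was 0.45 (edgeR adjusted p = 0.103), that of Pparg 0.46 (0.169), that of Cebpa 0.87 (0.11) and that of Zfp423 1.01 (0.102).

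Of 9 tested smooth muscle and pericyte markers, 8 were below 0, with a median log2 fold change of -0.25 and 2 called lower by edgeR. The exception was Smtn, at 265 ± 17.5 CPM in BMPR2 DELX against 227 ± 26.6 CPM in ROSA. Its log2 fold change was 0.22 ± 0.09 (edgeR unadjusted p = 0.0291, adjusted p = 0.139), so it was not called. The most abundant markers, Acta2 and Tagln, stood at -0.25 ± 0.14 and -0.24 ± 0.12. Neither was called (edgeR adjusted p of 0.288 and 0.225). Over all tested genes 50.7% were above 0. Cspg4 averaged 56.5 ± 18.2 CPM in BMPR2 DELX against 116 ± 23.6 CPM in ROSA (edgeR adjusted p = 0.03), a call kept only without BMPR2 DELX 3 or ROSA 4. Mcam averaged 75.4 ± 15.1 CPM in BMPR2 DELX against 129 ± 21.4 CPM in ROSA (edgeR adjusted p = 0.0191), a call lost without BMPR2 DELX 1, BMPR2 DELX 2 or ROSA 2. The summed level of the list overlapped, at 10256 to 13134 CPM in BMPR2 DELX and 11184 to 15031 CPM in ROSA.

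Of 19 tested fibroblast and preadipocyte markers, 2 were called higher and 2 lower by edgeR, the lower ones being Dlk1, which is also in the repressor list, and F3. The collagen gene Col3a1 averaged 1146 ± 185 CPM in BMPR2 DELX against 481 ± 49.2 CPM in ROSA (1.25 ± 0.12, edgeR adjusted p = 0.00131), a call held in all 8 fits without 1 library. Tissue factor, F3, averaged 416 ± 96.1 CPM in BMPR2 DELX against 886 ± 280.4 CPM in ROSA (edgeR adjusted p = 0.0347), a call kept only without BMPR2 DELX 3, ROSA 3 or ROSA 4. Dpp4, of interstitial progenitors, averaged 0.439 CPM in BMPR2 DELX against 0.1003 CPM in ROSA, was over the filter minimum in 4 BMPR2 DELX and 0 ROSA libraries, and kept its call (edgeR adjusted p = 0.0421) only without ROSA 4.

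Of 10 tested epithelial and mesothelial markers, 8 were above 0, against 50.7% of all tested genes, with a median log2 fold change of 1.06. Krt8, Pax8, Cdh16 and Upk3b were over the filter minimum in more BMPR2 DELX than ROSA libraries, which favours a positive sign. Pax8 was called higher by edgeR (adjusted p = 0.0467). Pax8 had 0.884, 1.92, 4.49 and 0.290 CPM in BMPR2 DELX libraries 1 to 4, against 0.218, 0.315, 0.0998 and 0.0584 CPM in ROSA libraries 1 to 4. Its groups overlapped, it was over the filter minimum in 4 BMPR2 DELX libraries and 1 ROSA library, and its call was kept only without BMPR2 DELX 4. Krt19 went the other way and was not called by edgeR, at 12.1 ± 5.85 CPM in BMPR2 DELX against 26.4 ± 3.65 CPM in ROSA. Its log2 fold change was -1.12 ± 0.30 (edgeR adjusted p = 0.0515), with every BMPR2 DELX library below every ROSA library. In this list DESeq2 called 2 higher and 1 lower, and limma voom 0 higher and 1 lower. The summed level of the list was 79.2 to 119 CPM in BMPR2 DELX and 74.1 to 93.9 CPM in ROSA. The smooth muscle, fibroblast, epithelial, Lyz2, Mpeg1 and complement markers named here were chosen after their values were seen, and the part of any of these cells in the differences of the regulators was not tested.

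The profile of Pparg over the 8 libraries was set against those of 11614 other tested protein-coding genes with a mean of at least 1 CPM. Genes with predicted, clone or pseudogene names were left out. The measure was the root mean square difference of log2 CPM after centring each gene on its mean. The 5 nearest genes were Ccdc191 at 0.0439, Angptl2 at 0.0822, Tmem106c at 0.0921, Slc50a1 at 0.0922 and Wasf3 at 0.0946. They were picked for likeness to Pparg, so their differences between groups are a description. Their log2 fold changes were 0.48 for Ccdc191, 0.44 for Angptl2, 0.33 for Tmem106c, 0.39 for Slc50a1 and 0.38 for Wasf3. Among the other regulators Ebf1 was closest to Pparg, at 0.190, followed by Ebf2 at 0.225 and Cebpa at 0.249. By this measure Ebf1 ranked 381, Ebf2 1021 and Cebpa 1786 among the tested genes. Many genes outside the regulator list thus lay nearer to Pparg than these did. Zfp423 was farthest, at 0.584, and Ppara stood at 0.392, both with few counts.

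**Figure D4:**
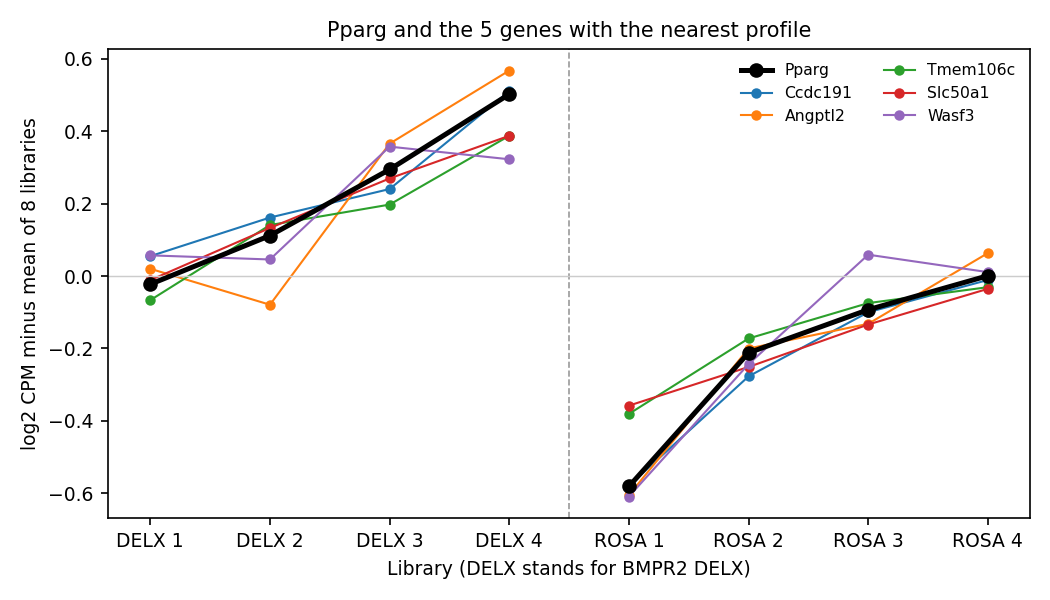
Log2 CPM minus the mean of the 8 libraries for Pparg (black) and the 5 genes with the nearest profile, BMPR2 DELX libraries left and ROSA libraries right; lines only join the points of a gene. All 6 genes are lowest in ROSA 1.

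The partners and relatives of the regulators were followed in gene lists, whose counts of edgeR calls stand beside 3.96% of all tested genes called higher and 5.15% called lower. Of 15 nuclear receptors, 14 were tested, and 2 were called higher and 0 lower by edgeR (2 lower at an unadjusted p below 0.05, and 1 lower by DESeq2 and 0 by limma voom), with a median log2 fold change of 0.08. Thra, a thyroid hormone receptor, had 23.7 ± 1.67 CPM in BMPR2 DELX against 14.7 ± 1.88 CPM in ROSA (0.69 ± 0.10 on the log2 scale, edgeR adjusted p = 0.00499). Vdr, the vitamin D receptor, had 42.8 ± 8.79 CPM in BMPR2 DELX against 25.0 ± 5.23 CPM in ROSA (0.78 ± 0.18, edgeR adjusted p = 0.0311), a call kept only without BMPR2 DELX 1 or ROSA 2 when single libraries were left out. The PPAR partners were present and not called: Rxra averaged 69.7 CPM in BMPR2 DELX against 65.5 CPM in ROSA, and Rxrb 31.4 CPM in BMPR2 DELX against 27.9 CPM in ROSA. Rxrg had at most 2 counts in a library.

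Neither of the 2 tested other C/EBP genes was called by edgeR, DESeq2 or limma voom, and 0 had an unadjusted p below 0.05. Cebpg, a widely expressed dimer partner, had a log2 fold change of -0.10 ± 0.11 (edgeR adjusted p = 0.591), and Ddit3 (CHOP), an inhibitory family member of the stress response, one of -0.01 ± 0.16 (edgeR adjusted p = 0.964) whose sign turned under upper-quartile scaling. Cebpe had 0 counts. Of 11 other EBF and zinc finger commitment factors 10 were tested and 0 were called by edgeR, with 4 higher at an unadjusted p below 0.05, 1 called higher by DESeq2 and 0 by limma voom. Of these 10, 9 were above 0, against 50.7% of all tested genes, and the median log2 fold change was 0.21. Among them, Shox2 was over the filter minimum in 3 BMPR2 DELX libraries and 1 ROSA library, which favours a positive sign, and Tbx15 stood at 0.0085. Tcf21, a factor of mesenchymal progenitors, had 4.05 ± 1.35 CPM in BMPR2 DELX against 2.05 ± 0.516 CPM in ROSA (0.99 ± 0.27, edgeR adjusted p = 0.0512), and without BMPR2 DELX 2 the p was 0.0451. Tcf21 was called in 4 of 11 other settings, among them DESeq2 (adjusted p = 0.00584) and upper-quartile scaling (edgeR adjusted p = 0.0477). Ebf4 had a log2 fold change of 1.04 ± 0.39 (edgeR adjusted p = 0.126).

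Of 18 activators of adipogenesis 17 were tested, with 2 called higher and 1 lower by edgeR and a median log2 fold change of -0.05. At an unadjusted p below 0.05, 6 were higher and 5 lower. DESeq2 called 5 higher and 4 lower, and limma voom 5 higher and 1 lower. Klf5, a Krüppel-like factor that acts with C/EBPs on Pparg, fell to 10.7 ± 1.43 CPM in BMPR2 DELX, against 21.3 ± 5.01 CPM in ROSA (-0.99 ± 0.17, edgeR adjusted p = 0.00922). Nfia, a nuclear factor of brown fat, had 27.8 ± 2.20 CPM in BMPR2 DELX against 20.0 ± 2.03 CPM in ROSA (0.47 ± 0.09, edgeR adjusted p = 0.0157). Stat5b, a mediator of growth hormone signals, rose by 0.33 ± 0.07 (edgeR adjusted p = 0.0185), a call lost without ROSA 2 (0.0531).

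Of 22 repressors of adipogenesis 21 were tested, with 0 called higher, 4 lower and a median log2 fold change of -0.19. At an unadjusted p below 0.05, 1 was higher (Smad3), and DESeq2 called 1 higher and limma voom 0. Smad3, named after its values were seen, averaged 89.3 ± 5.10 CPM in BMPR2 DELX against 63.3 ± 13.3 CPM in ROSA. Its log2 fold change was 0.50 ± 0.14 (edgeR adjusted p = 0.0517), with every BMPR2 DELX library above every ROSA library. The edgeR background was 3.96% of all tested genes higher and 5.15% lower. Dlk1, the preadipocyte factor Pref-1, averaged 0.281 ± 0.147 CPM in BMPR2 DELX against 1.66 ± 1.05 CPM in ROSA (-2.58 ± 0.54, edgeR adjusted p = 0.0213), a call lost without BMPR2 DELX 1, BMPR2 DELX 2 or ROSA 2. Dlk1 was over the filter minimum in 2 BMPR2 DELX and 4 ROSA libraries, so it was tested because of its level in ROSA. Sox9, a cartilage factor, averaged 8.59 ± 2.61 CPM in BMPR2 DELX against 19.8 ± 6.47 CPM in ROSA (-1.20 ± 0.28, edgeR adjusted p = 0.0311), a call kept only without BMPR2 DELX 4 or ROSA 4. Klf7 averaged 67.0 ± 3.60 CPM in BMPR2 DELX against 93.1 ± 15.9 CPM in ROSA (-0.48 ± 0.11, edgeR adjusted p = 0.0309), a call kept only without ROSA 3 or ROSA 4. Yap1, the Hippo pathway coactivator, fell by 0.29 ± 0.08 on the log2 scale (edgeR adjusted p = 0.0459), a call kept only without BMPR2 DELX 3 or ROSA 3.

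Among 22 coregulators of PPAR and C/EBP proteins, all tested, 0 were called higher and 1 lower by edgeR, DESeq2 and limma voom alike, with 2 higher at an unadjusted p below 0.05. Cited2, a coactivator-binding protein, averaged 171 ± 23.0 CPM in BMPR2 DELX against 252 ± 35.9 CPM in ROSA (-0.56 ± 0.12, edgeR adjusted p = 0.0219), a call lost without BMPR2 DELX 2, BMPR2 DELX 3 or ROSA 2. Ppargc1b, the paralog of Ppargc1a, averaged 1.54 ± 0.121 CPM in BMPR2 DELX against 1.01 ± 0.193 CPM in ROSA and was not called (0.61 ± 0.20, edgeR adjusted p = 0.0877). Prdm16, the coregulator of brown fat identity, averaged 0.502 CPM in BMPR2 DELX against 0.301 CPM in ROSA and was not called; it was over the filter minimum in 4 BMPR2 DELX libraries and 1 ROSA library.

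PPAR target genes were called in both directions. Of 48 in the list 37 were tested, with 3 called higher, 5 lower and a median log2 fold change of -0.04, where 3.96% of all tested genes were called higher, 5.15% lower and 9.1% in either direction. Pdk4, the kinase that turns off pyruvate dehydrogenase, fell to 32.0 ± 1.96 CPM in BMPR2 DELX, against 81.6 ± 5.58 CPM in ROSA (-1.35 ± 0.07, edgeR adjusted p = 3.72e-05). Angptl4, a secreted inhibitor of lipoprotein lipase, fell to 27.5 ± 1.63 CPM in BMPR2 DELX, against 56.9 ± 7.83 CPM in ROSA (-1.05 ± 0.10, edgeR adjusted p = 0.00131). For both genes every BMPR2 DELX library was below every ROSA library, and both calls held in all 8 fits without 1 library.

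Slc27a1, a fatty acid transporter, averaged 12.7 ± 0.576 CPM in BMPR2 DELX against 19.3 ± 2.71 CPM in ROSA (-0.61 ± 0.10, edgeR adjusted p = 0.00954). Plin2, a lipid droplet coat protein, fell by 0.54 ± 0.12 on the log2 scale (edgeR adjusted p = 0.0233), a call kept only without BMPR2 DELX 4 or ROSA 4. Ech1, an enzyme of fatty acid oxidation, averaged 32.0 ± 2.44 CPM in BMPR2 DELX against 24.9 ± 1.07 CPM in ROSA (0.36 ± 0.07, edgeR adjusted p = 0.0178). The other 3 called targets are named after their values were seen. Lpl, lipoprotein lipase, averaged 210 ± 34.5 CPM in BMPR2 DELX against 140 ± 17.7 CPM in ROSA (0.58 ± 0.13, edgeR adjusted p = 0.0241), a call lost without BMPR2 DELX 3, BMPR2 DELX 4, ROSA 1 or ROSA 2. Cpt2 rose by 0.35 ± 0.08 and Cpt1a fell by 0.42 ± 0.09, both carnitine palmitoyltransferases (edgeR adjusted p of 0.0338 and 0.0239). The call of Cpt2 was kept only without BMPR2 DELX 1, and that of Cpt1a was lost without BMPR2 DELX 1, BMPR2 DELX 2, ROSA 1 or ROSA 2. Fabp4, the fatty acid binding protein of fat cells and capillaries, averaged 49.9 ± 11.4 CPM in BMPR2 DELX against 61.0 ± 11.9 CPM in ROSA and was not called.

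**Figure D5:**
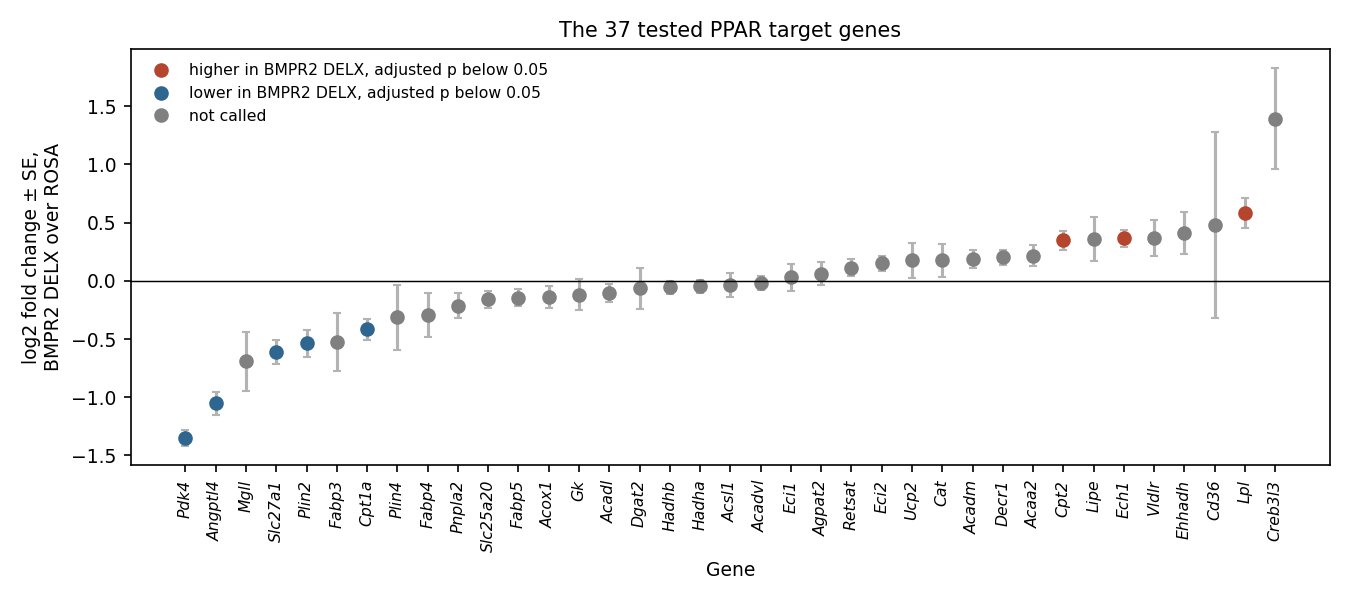
Log2 fold change of BMPR2 DELX over ROSA with its standard error for the 37 tested PPAR target genes, ordered by value; colours mark genes with an adjusted p below 0.05. The 5 lower genes include Pdk4 and Angptl4 and the 3 higher ones are Cpt2, Ech1 and Lpl.

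The 11 PPAR targets that were not tested were under 1 CPM in all libraries and included Adipoq, Plin1, Cidec and Pck1. Of 34 thermogenic and mitochondrial biogenesis genes 21 were tested and 0 were called by edgeR, with a median log2 fold change of 0.02. At an unadjusted p below 0.05, 3 were higher and 1 lower, and DESeq2 and limma voom each called 1 lower. The 2 with the smallest p were Mfn2, a mitochondrial fusion protein (-0.26 ± 0.08, edgeR adjusted p = 0.0563, and called by DESeq2 at 0.0269, by limma voom at 0.0447 and with a filter of 1 CPM at 0.0495), and Letmd1, a mitochondrial protein of brown fat (0.19 ± 0.07, edgeR adjusted p = 0.125). Ucp1, the uncoupling protein of brown fat, had at most 2 counts in a library.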

How the data were processed

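Polyadenylated RNA of 8 samples was sequenced, and the deposited files hold raw counts per Ensembl gene with no normalization found in them. The submitters' processing notes name the GRCm38 build, the aligner STAR (2.5.2b) and HTSeq; the annotation release and read layout are not given in the sources used here. The opposite-strand column, with 93.4% of strand-assigned counts, was analysed (rule: over 80%). The 4 lines that name no gene held 14.7% to 22.0% of the reads and were left out. Symbols, positions and exon lengths came from GENCODE M21, which held 49412 of 49671 IDs. A count of 0 allows up to 3 counts, or 0.0687 to 0.104 CPM, for counting error only.

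Genes were filtered with filterByExpr (minimum count 10), scaled by TMM and tested with the edgeR 4.0.16 quasi-likelihood test (R 4.3.3) on group alone, with Benjamini-Hochberg adjustment over 14887 genes and calls at 0.05. The labels do not say whether samples came from separate animals, so p-values measure the spread between these samples, which may be technical. Alternatives were other scalings and filters, DESeq2 1.42.0, limma 3.58.1, the unstranded column, a replicate block and left-out libraries. Log2 CPM profiles used a prior count of 2.

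The members and lists were chosen with earlier results of these data known. Named genes are the members, Bmpr2, up to 5 called genes of each list by smallest p (the 2 smallest where none was called) and the 5 nearest Pparg; others are said to be chosen after their values were seen or are given as partners and markers of the lists. Figures were drawn with matplotlib 3.10.9.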

Additional observations from a re-analysis of the deposited data

How the results depend on the processing

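Over all genes the 1355 calls became 2266 with DESeq2, 172 without both ROSA 1 and ROSA 2, 631 without both BMPR2 DELX 3 and ROSA 3, and 532 with the unassigned share as a covariate, a setting chosen after seeing the data; leaving out 1 library gave 477 to 1266. Of the regulators, 4 were called with DESeq2 (Pparg, Cebpa, Cebpd and Zfp423, with adjusted p of 0.035, 0.00558, 0.00439 and 0.0347), 2 with limma voom and 2 with the unstranded column (Cebpa and Cebpd each time). Leaving out 1 library gave 0 to 1, and 0 were called without both ROSA 1 and ROSA 2, without both BMPR2 DELX 3 and ROSA 3, or with the covariate. With the replicate number as a block, 1245 genes and 4 regulators were called (Pparg, Cebpa, Cebpd and Zfp423, with edgeR adjusted p of 0.021, 0.0331, 0.0493 and 0.0452). Same-numbered libraries correlated at 0.005 to 0.24 and libraries of unlike number at -0.24 to 0.18. Of the 8 libraries, 5 correlated best with their own number. The labels name no pairing, and the main fit did not take the numbers as pairs. These correlations do not settle whether same-numbered libraries belong together. Of 152 log2 fold changes of the tested regulators other than Ppara under the alternatives, 150 were above 0; the exceptions were Ebf2 at -0.13 without both ROSA 1 and ROSA 2 and at -0.0135 with the covariate. Ddit3 turned to 0.0205 with upper-quartile factors, 0.0526 with limma voom, 0.0008 with no filter and 0.0322 without both BMPR2 DELX 3 and ROSA 3, and ran from -0.14 to 0.11 over single left-out libraries. The causes were not tested. Low counts limit Ppara, Zfp423 and Ppargc1a.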
